A study of Mus musculus with 2 samples.

Results

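Oligodendrocyte precursors are the dividing glial cells of the developing brain and spinal cord that give rise to the myelin-forming oligodendrocytes. They are marked by the basic helix-loop-helix factors Olig1 and Olig2 and by the SoxE factor Sox10. They depend on platelet-derived growth factor, which they sense through the receptor tyrosine kinase Pdgfra. Their surface carries the proteoglycan NG2, which is the product of Cspg4, and Lhfpl3, a membrane protein of the LHFPL family, is used as a further marker. Pdgfra and Cspg4 are also used by other cells, Pdgfra by fibroblasts and other mesenchymal cells and Cspg4 by pericytes and mesenchyme, and Sox10 is also a factor of neural crest and Schwann cells. The genes described here are these 6 of the 32285 genes of the count matrix, taken by name. All 6 had UMIs (unique molecular identifiers, each standing for 1 captured RNA molecule) and all 6 passed the minimum of 50 UMIs set for ratios.

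The RNA and the open chromatin of brain tissue from an E18.5 C57BL/6 embryo were read from shared barcodes by SPARC-seq. The embryo was homozygous for the CTCF-R567W mutation, which had been introduced by CRISPR/Cas9 into the gene of the chromatin architectural factor CTCF, and each assay had 1 library. No library of another Ctcf genotype was analysed here, so no effect of the mutation could be measured and every value below describes this tissue alone. Barcode pairs from a 50 by 50 grid were treated as spots that may each hold several cells, and all 1993 barcodes of the matrix were shared with the accessibility library.

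After filtering, 1992 spots held 8711132 UMIs, with a median of 4157 per spot (907 to 12442), and a median of 21705 accessibility fragments per spot. Ctcf itself had 734 UMIs, or 84.3 CPM (UMIs scaled to a total of 1000000; 78.3 to 90.6). Clustering, run without the 6 genes and without the gene lists used below except the muscle list, gave 3 regions named by their first leading gene. The Car3 region (251 spots) was led by Car3 and by skeletal muscle genes such as Myh3 and Myh8. The Gh region (284 spots) was led by the pituitary hormone genes Gh and Pomc, followed by Ttr and Ptgds, and its leading genes also included globin genes. The Wfdc2 region (38 spots) was led by secretory epithelial genes such as Wfdc2 and Muc5b. The other 1419 spots are called the remaining spots. The tissue was labelled as brain, and the first leading gene of each of these 3 regions was a gene of another tissue. The leading genes of the Gh region were mixed, so its spots are not named as 1 tissue. The muscle list made up 1.73% of UMIs in the Car3 region and 0.533% in the remaining spots, and the connective-tissue list, which holds collagens and other fibroblast genes, made up 0.424% and 0.130%. Intervals are at the 95% level and reflect counting error only, and with a single RNA and a single accessibility library the groups of spots could not be tested against each other. In spots, fewer cells of a type and less RNA per cell cannot be told apart.

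The RefSeq promoter sequences (GRCm38.p6, from 250 bases before to 50 bases after the start site, written 5′ to 3′) are shown for the 4 of the 6 genes found in the promoter table used here, because promoter accessibility is compared between regions of spots below. Capitals mark matches to ACAAAG or ACAATG, which are Sox-type motifs, or to CAGCTG, an E-box of the type bound by basic helix-loop-helix factors, searched on both strands.
Pdgfra promoter, chr5:75152001-75152300, plus strand: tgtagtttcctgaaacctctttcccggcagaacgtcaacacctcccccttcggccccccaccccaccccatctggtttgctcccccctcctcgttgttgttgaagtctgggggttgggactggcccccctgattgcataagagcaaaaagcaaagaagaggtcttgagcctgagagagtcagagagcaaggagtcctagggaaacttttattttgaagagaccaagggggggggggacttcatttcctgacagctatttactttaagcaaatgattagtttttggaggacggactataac
Cspg4 promoter, chr9:56864854-56865153, plus strand: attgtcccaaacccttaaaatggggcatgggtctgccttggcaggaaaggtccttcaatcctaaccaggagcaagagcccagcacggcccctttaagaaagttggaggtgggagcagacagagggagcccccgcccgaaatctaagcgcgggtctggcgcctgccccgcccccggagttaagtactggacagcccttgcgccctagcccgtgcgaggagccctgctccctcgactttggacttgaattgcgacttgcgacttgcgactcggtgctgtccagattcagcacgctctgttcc
Olig2 promoter, chr16:91225300-91225599, plus strand: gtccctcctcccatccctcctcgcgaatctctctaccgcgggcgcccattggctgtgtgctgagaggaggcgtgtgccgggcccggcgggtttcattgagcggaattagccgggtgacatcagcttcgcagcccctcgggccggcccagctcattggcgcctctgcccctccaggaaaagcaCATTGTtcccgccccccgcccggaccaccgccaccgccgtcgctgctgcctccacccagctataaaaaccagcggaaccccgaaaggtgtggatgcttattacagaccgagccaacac
Lhfpl3 promoter, chr5:22745804-22746103, plus strand: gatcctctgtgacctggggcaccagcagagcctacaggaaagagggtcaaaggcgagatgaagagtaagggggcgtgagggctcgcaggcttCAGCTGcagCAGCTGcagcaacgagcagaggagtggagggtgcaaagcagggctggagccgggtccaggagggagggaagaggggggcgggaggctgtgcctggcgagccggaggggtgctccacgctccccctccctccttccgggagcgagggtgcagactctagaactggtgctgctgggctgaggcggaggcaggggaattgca
ACAATG was matched once in the Olig2 window, with its first base at position -68 from the start site, and CAGCTG in 2 places in the Lhfpl3 window, at -158 and -149. The Pdgfra and Cspg4 windows held no match to these letters. Of 32851 promoters, 18.7% held ACAAAG, 12.6% held ACAATG and 16.3% held CAGCTG, and these matches are descriptions of the letters only. The windows of Lhfpl3 and Olig2 had a GC content of 66% and 65%, that of Cspg4 60% and that of Pdgfra 51%, beside a median of 52.7% over all promoters. The Olig2 window held 25 CpG dinucleotides and the Pdgfra window 5, beside a median of 7.

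Because CTCF is the mutated factor, its core consensus was searched in the 42 deposited peaks whose nearest protein-coding start site was that of 1 of the 6 genes. It was matched in 3 of them, beside 2.39% of 91150 peaks searched, and in none of the 4 promoter windows, beside 0.457% of all promoters. The 3 matches are shown in capitals with 50 bases on each side, on the strand that reads the consensus, and distances are from the start site in the direction of transcription.
Pdgfra, peak at -8964 bp, chr5:75143362-75143474, minus strand: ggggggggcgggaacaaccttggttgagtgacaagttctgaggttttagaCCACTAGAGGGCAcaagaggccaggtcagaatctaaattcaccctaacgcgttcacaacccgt
Pdgfra, peak at 3862 bp, chr5:75156321-75156433, minus strand: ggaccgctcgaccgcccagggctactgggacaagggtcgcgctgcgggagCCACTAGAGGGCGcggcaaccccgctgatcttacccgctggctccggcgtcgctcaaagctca
Cspg4, peak at 26575 bp, chr9:56891538-56891650, plus strand: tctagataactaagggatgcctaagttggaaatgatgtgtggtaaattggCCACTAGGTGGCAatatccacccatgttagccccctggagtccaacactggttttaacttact
The peaks that hold them had 119, 389 and 275 cut sites, and the second is the most open peak of the Pdgfra locus. No binding of CTCF was measured here.

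The RNA of the 6 genes spanned a wide range. Lhfpl3 (ENSMUSG00000106379, GRCm38 chromosome 5, 22746059 to 23275597) had 2378 UMIs, or 273 CPM (262 to 284, exact Poisson interval), and was at percentile 97.4 of protein-coding genes. Cspg4 (ENSMUSG00000032911, chromosome 9, 56865033 to 56899870) had 377 UMIs, or 43.3 CPM (39.0 to 47.9), and Pdgfra (ENSMUSG00000029231, chromosome 5, 75152292 to 75198215) had 248, or 28.5 CPM (25.04 to 32.2). The median of the 21702 protein-coding genes was 82 UMIs.

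The transcription factors had fewer UMIs, though Olig1 and Olig2 were still above that median. Olig1 (ENSMUSG00000046160, chromosome 16, 91269772 to 91271933) had 162 UMIs, or 18.6 CPM (15.8 to 21.7). Its neighbour Olig2 (ENSMUSG00000039830, chromosome 16, 91225457 to 91228677) had 96 UMIs, or 11.02 CPM (8.93 to 13.5). Sox10 (ENSMUSG00000033006, chromosome 15, 79154908 to 79165240, minus strand) had 61 UMIs, or 7.00 CPM (5.36 to 8.995), the lowest of the 6 and at percentile 46.3.

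UMI counts were also scaled per length. As each UMI stands for 1 captured molecule, the scaled values are not numbers of molecules. The scaling lowers Cspg4 and Pdgfra, which have 11.9 and 10.02 exonic kb, below Olig1 and Olig2. Per kb of exonic transcript, Lhfpl3 had 740 UMIs, Olig1 74.9, Olig2 37.9, Cspg4 31.6, Pdgfra 24.7 and Sox10 19.99. Lhfpl3 exceeded Olig1 on this scale by 9.88 times (8.42 to 11.7), and Olig1 exceeded Olig2 by 1.97 times (1.52 to 2.57). Neighbours whose ratio had an interval that held 1 were Olig2 and Cspg4 (1.20, 0.950 to 1.51) and Pdgfra and Sox10 (1.24, 0.932 to 1.67). Per kb of gene span the order turned for Lhfpl3, whose gene spans 530 kb: Olig1 led with 74.9 UMIs per kb, followed by Olig2 with 29.8, Cspg4 with 10.8, Sox10 with 5.90, Pdgfra with 5.40 and Lhfpl3 with 4.49. The place of Lhfpl3 therefore depended on the choice of length, and the share of its reads from introns was not given in the sources used here.

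Spots rarely held more than 1 UMI of these genes, apart from Lhfpl3. Pdgfra had a UMI in 227 spots of the 1992, which is 11.4% (10.03% to 12.9%, Clopper-Pearson), and 1 spot held 3 of its UMIs. Cspg4 was seen in 351 spots (17.6%), Olig1 in 152 (7.63%), Olig2 in 92 (4.62%), Sox10 in 59 (2.96%) and Lhfpl3 in 1315 (66.0%). At an equal depth of 2000 UMIs, over the 1831 spots that reached it, the expected shares were 5.40% for Pdgfra, 8.43% for Cspg4, 4.01% for Olig1, 2.20% for Olig2, 1.36% for Sox10 and 42.0% for Lhfpl3. No group of spots known to lack these genes could be used as a background for the shares.

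Promoter accessibility was taken as the fragments in a window reaching 1 kb to either side of the GENCODE start site. Olig1 had 194 fragments (168 to 223, exact Poisson interval), Lhfpl3 190 (164 to 219), Cspg4 184 (158 to 213), Olig2 134 (112 to 159), Pdgfra 103 (84.1 to 124.9) and Sox10 94 (75.96 to 115). The median protein-coding gene had 159 fragments, and coding genes without any UMI had a median of 20 (quartiles 5 and 38). All 6 promoters thus lay above the upper quartile of genes without RNA. The order differed from that of RNA, since Olig1 and Lhfpl3, far apart in UMIs, had promoter counts with overlapping intervals. A deposited peak overlapped the promoter window of 4 genes, Olig1, Olig2, Cspg4 and Lhfpl3, and of 62.7% of protein-coding genes. Pdgfra and Sox10 had none there.

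Between regions of spots, Pdgfra and Cspg4 RNA was higher in the Car3 region, and Olig1, Olig2, Sox10 and Lhfpl3 RNA was lower or not separable from the remaining spots. Pdgfra had 50 UMIs in the Car3 region, or 38.3 CPM, and 162 in the remaining spots, or 26.96 CPM, a ratio of 1.42 (1.01 to 1.96, conditional exact binomial interval). Cspg4 had 80 UMIs against 235, or 61.2 against 39.1 CPM, a ratio of 1.57 (1.20 to 2.03). Both intervals lay above 1, but that of Pdgfra held 1 when spots were clustered at resolution 2.0 (1.32, 0.928 to 1.85) or with another random seed (1.33, 0.940 to 1.86). At resolution 0.5, and with at least 2000 UMIs per spot, the muscle and epithelial spots joined in 1 region led by Wfdc2 (287 and 280 spots), for which the Pdgfra intervals also held 1 (1.33, 0.965 to 1.80, and 1.37, 0.983 to 1.89). Olig1 had 17 UMIs against 128, or 13.01 against 21.3 CPM, a ratio of 0.611 (0.345 to 1.02). Olig2 had 10 against 73, a ratio of 0.630 (0.290 to 1.23), and Sox10 had 6 against 48, a ratio of 0.575 (0.201 to 1.35). Each of these 3 intervals held 1, but that of Olig1 lay below 1 at resolution 2.0 (0.577, 0.320 to 0.974) and in both joined regions (0.582, 0.336 to 0.953, and 0.531, 0.2999 to 0.885), and that of Olig2 in the joined region with at least 2000 UMIs (0.495, 0.218 to 0.994). Lhfpl3, with far more UMIs, had a ratio of 0.874 (0.774 to 0.985), close to 1 but with an interval below it, which held 1 when Gm42418 was left out of the UMI total (0.892, 0.790 to 1.005).

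Summed, the pair shared with connective tissue, Pdgfra and Cspg4, had a ratio of 1.51 (1.23 to 1.84), and the 3 transcription factor genes Olig1, Olig2 and Sox10 had a ratio of 0.610 (0.411 to 0.879). With Lhfpl3 added to the factors the ratio was 0.840 (0.749 to 0.941), a sum in which Lhfpl3 had most of the UMIs. Neither interval overlapped that of Pdgfra and Cspg4. At a 1.5-fold limit, 1 of the 6 genes was higher and 3 were lower in the Car3 region, beside 12.1% and 9.05% of the 12944 genes with at least 50 UMIs. The median ratio of those genes was 0.984. Ctcf had 85.7 CPM in the Car3 region and 83.7 in the remaining spots.

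In the Gh region, Pdgfra had 31 UMIs, or 26.9 CPM, with a ratio of 0.997 (0.656 to 1.47), and Cspg4 had 54, with a ratio of 1.20 (0.873 to 1.62). Olig1, Olig2 and Sox10 summed to 36 UMIs there, with a ratio of 0.753 (0.516 to 1.07). None of the 6 RNA intervals for the Gh region left out 1, and 1 gene, Olig1 (0.651, 0.361 to 1.10), was lower by 1.5-fold, beside 5.13% of all genes, and none was higher (5.52%). The Pdgfra promoter was higher there (16 against 34 fragments, ratio 2.01, 1.03 to 3.74), beside 5.65% of promoters, and none was lower by 1.5-fold (6.79%). The Wfdc2 region held 1 UMI of Olig1 and none of Olig2 or Sox10, where a count of 0 allows up to 12.4 CPM. As a sum, this single UMI stood against 249 in the remaining spots, a ratio of 0.0995 (0.00251 to 0.559). Their promoters summed to 12 fragments against 282, a ratio of 1.001 (0.511 to 1.78), with no lower accessibility detectable. Pdgfra and Cspg4 summed to 13 UMIs in the Wfdc2 region, a ratio of 0.811 (0.428 to 1.40), and to 3 promoter fragments, a ratio of 0.598 (0.122 to 1.79). Connective RNA was higher than in the remaining spots in both regions, by 2.26 times (2.09 to 2.44) in the Wfdc2 region and 1.68 times (1.603 to 1.75) in the Gh region, and higher RNA of Pdgfra or Cspg4 was not detectable in either at this depth. Lhfpl3 had 54 UMIs in the Wfdc2 region and a ratio of 0.784 (0.587 to 1.03).

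**Figure D1:**
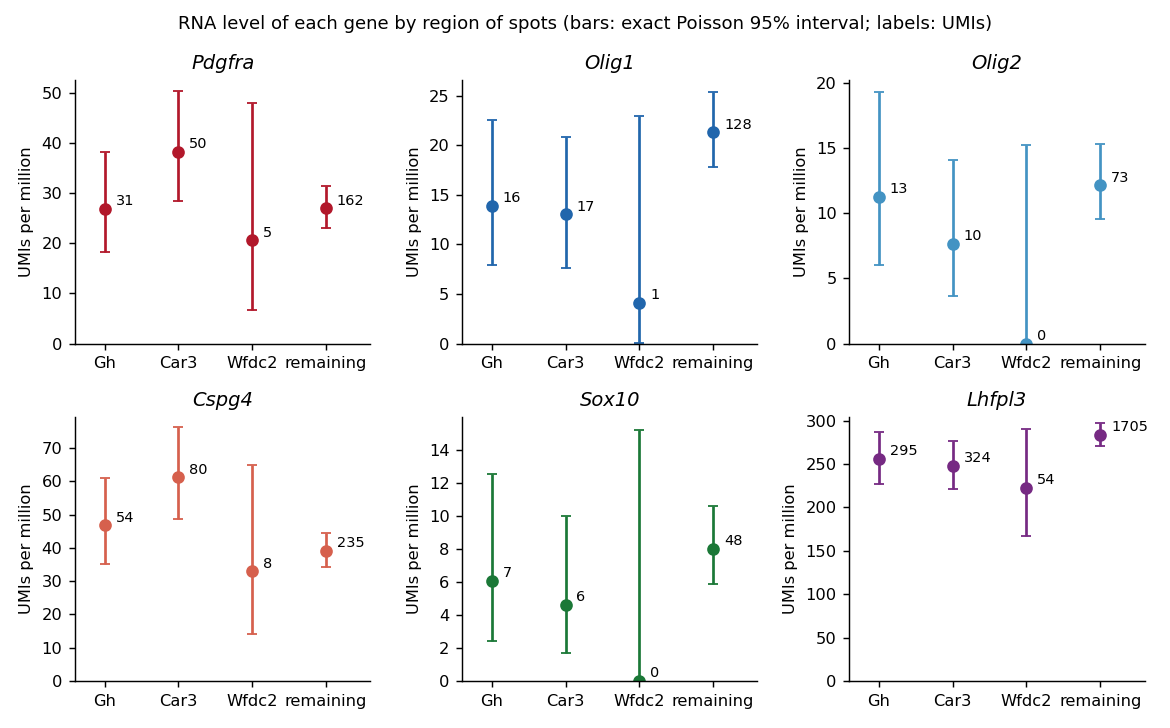
RNA level of each of the 6 genes in CPM (vertical axes, each from 0) in the Gh, Car3 and Wfdc2 regions and the remaining spots, as points with exact Poisson 95% intervals and the number of UMIs beside each point. Pdgfra and Cspg4 have their highest point in the Car3 region (38.3 and 61.2 CPM), and the other 4 genes in the remaining spots.

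The accessibility library, which took no part in forming the regions, showed a split of the same direction. For Pdgfra the ratio at the GENCODE start site was larger than in RNA. The Pdgfra promoter had 53 fragments in the Car3 region and 34 in the remaining spots, or 38.2 against 9.11 promoter CPM (promoter fragments scaled in the same way), a ratio of 4.19 (2.67 to 6.65). This ratio depended on the start site. Fragments centred within 1 kb of RefSeq start sites gave at most 4.56 (2.92 to 7.24), 630 bp downstream. The lowest ratio was 1.81 (1.37 to 2.37), 3860 bp downstream, at the site with most fragments (277). Its interval overlapped that of Pdgfra RNA, and these windows were not planned. The Cspg4 promoter had 82 against 84 fragments, or 59.1 against 22.5 promoter CPM, a ratio of 2.62 (1.91 to 3.602). The Cspg4 window also overlaps the neighbouring gene Odf3l1. Cut sites summed over the peaks nearest Cspg4 had a ratio of 1.13 (0.984 to 1.30). The Olig1 promoter had 29 against 135 (ratio 0.578, 0.373 to 0.868), the Olig2 promoter 19 against 95 (0.538, 0.310 to 0.887) and the Lhfpl3 promoter 25 against 127 (0.529, 0.330 to 0.817). For these 3 genes accessibility was lower in the Car3 region, with intervals below 1, apart from Olig2 when 4000 variable genes were used for the clusters (0.715, 0.436 to 1.13). At the 1.5-fold limit, 2 of the 6 promoters were higher and 3 were lower, beside 12.2% and 13.2% of 16386 promoters. The Car3 region had a median of 38943 fragments per spot and the remaining spots 20339, and the ratios are of promoter CPM.

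For Sox10, the RNA and promoter ratios lay on opposite sides of 1, and both intervals held 1. Its promoter had 26 fragments in the Car3 region and 52 in the remaining spots, a ratio of 1.34 (0.806 to 2.19) while its RNA ratio was 0.575. RefSeq places a Sox10 start site 750 bp inside the GENCODE one, and fragments centred within 1 kb of that site gave 29 against 41, a ratio of 1.90 (1.14 to 3.14). This second window was chosen after the values were seen. With 500 bp on each side of the GENCODE site the ratio was 1.91 (1.002 to 3.56), and with 2 kb it was 1.13 (0.791 to 1.59), so whether the interval held 1 depended on the window. The Schwann-cell list, which shares Sox10 as a lineage factor but does not contain it, is described below.

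**Figure D2:**
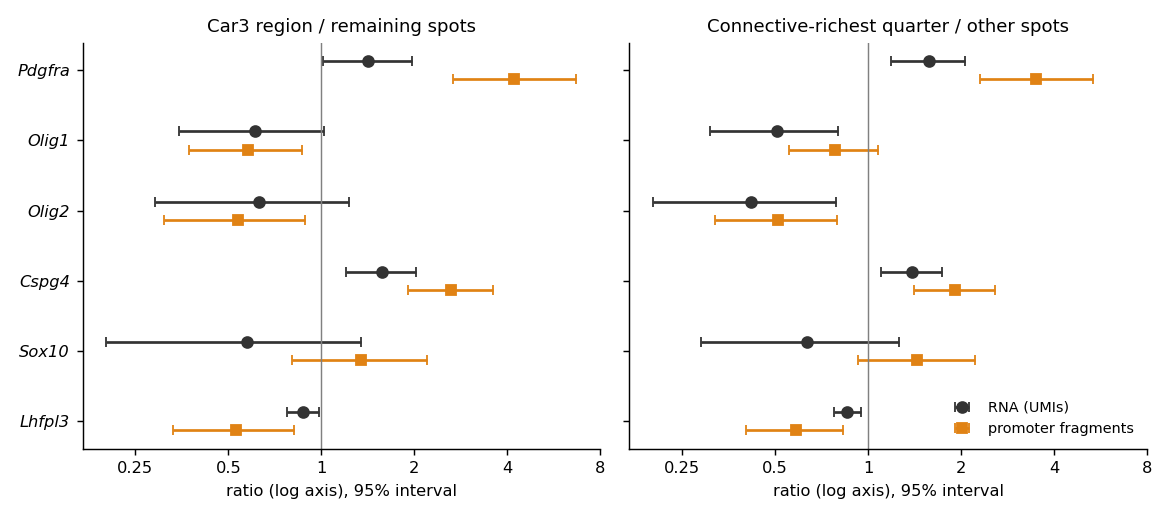
Ratio of RNA (circles) and of promoter fragments (squares) for each gene, with 95% intervals, on a log axis; the left panel sets the Car3 region against the remaining spots and the right panel the connective-richest 25% of spots against the others. Pdgfra and Cspg4 lie to the right of 1 in all 4 of their pairs of points, and Olig1, Olig2 and Lhfpl3 to the left.

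Peaks around Pdgfra were mostly more open in the Car3 region and those around Olig1 and Olig2 mostly less open, while those of Cspg4 were split. Of the 9 peaks nearest to Pdgfra with at least 50 cut sites, 5 had a cut-site ratio of 1.5 or more in the Car3 region over the remaining spots and 1 was lower by that fold. Of 10 peaks nearest to Olig1, 6 were lower and none higher by 1.5-fold, and of 7 nearest to Olig2, 5 were lower and none higher. Over 85932 peaks, 20.7% were higher and 29.2% lower. The median ratio was 2.23 for the Pdgfra peaks, 0.406 for the Olig1 peaks and 0.486 for the Olig2 peaks, beside 0.925 for all peaks.

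The strongest Pdgfra peak (chromosome 5, 75155697 to 75156638, inside the gene) had 143 cut sites in the Car3 region and 178 in the remaining spots, a ratio of 2.23 (1.78 to 2.79). It is 1 of the peaks with a CTCF match shown above, and it covers a RefSeq start site of Pdgfra 3860 bp downstream of the GENCODE one. The other CTCF-matched peak, at -8964 bp, had 26 against 76 cut sites and a ratio of 0.949 (0.584 to 1.499). The next 2 peaks by cut sites, at 32292 bp and 5036 bp after the start site, had ratios of 2.82 (1.96 to 4.06) and 1.39 (0.920 to 2.06). The peak at 27437 bp, also inside the gene, leaned the other way, with 21 against 91 cut sites and a ratio of 0.640 (0.378 to 1.04).

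The peaks of Cspg4 were split within the gene. Its promoter peak (chromosome 9, 56864604 to 56865379) had 100 cut sites in the Car3 region and 79 in the remaining spots, a ratio of 3.51 (2.59 to 4.78). This peak also overlaps the neighbouring gene Odf3l1 and cannot be assigned to Cspg4 alone. The 2 peaks with most cut sites lie inside Cspg4, at 3412 and 24920 bp from the start site, and had ratios of 0.763 (0.582 to 0.991) and 0.611 (0.437 to 0.838). The gene therefore held peaks on both sides of 1, each with an interval that left out 1.

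At the Olig locus on chromosome 16, the peak over the start site of Olig1 (91269362 to 91270151) had 18 cut sites in the Car3 region and 163 in the remaining spots, a ratio of 0.306 (0.177 to 0.4998). A second peak within the promoter window (91270683 to 91271586) had 25 against 84, a ratio of 0.826 (0.506 to 1.30). The 2 other strong peaks nearest Olig1, at -3531 and 34477 bp from its start site, had ratios of 0.319 (0.190 to 0.508) and 0.699 (0.473 to 1.01). The promoter peak of Olig2 (91224955 to 91225868) had 24 against 137 cut sites, a ratio of 0.486 (0.301 to 0.754). Its strongest peaks, at -33469 and -3105 bp, had ratios of 0.445 (0.279 to 0.681) and 0.478 (0.300 to 0.735). Olig1 and Olig2 are neighbours, and their peaks were assigned by the nearest start site only.

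Lhfpl3 is long, and the 8 peaks nearest to its start site with at least 50 cut sites all overlap the gene. The Lhfpl3 promoter peak (chromosome 5, 22745690 to 22746527) had 30 against 160 cut sites and a ratio of 0.520 (0.340 to 0.772), and its next 2 by cut sites, 289602 and 297027 bp into the gene, had ratios of 0.727 (0.433 to 1.17) and 0.529 (0.259 to 0.989). Peaks in the far part of the gene are nearer to the start site of Kmt2e, and the one at 505930 bp had 47 against 73 cut sites and a ratio of 1.79 (1.21 to 2.61), while those at 479093, 434298 and 438094 bp had ratios of 1.26 (0.828 to 1.90), 0.728 (0.392 to 1.28) and 0.675 (0.287 to 1.42). Sox10 was nearest to a single peak, at -28198 bp (chromosome 15, 79192974 to 79193902), with 66 against 201 cut sites and a ratio of 0.911 (0.679 to 1.21).

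**Figure D3:**
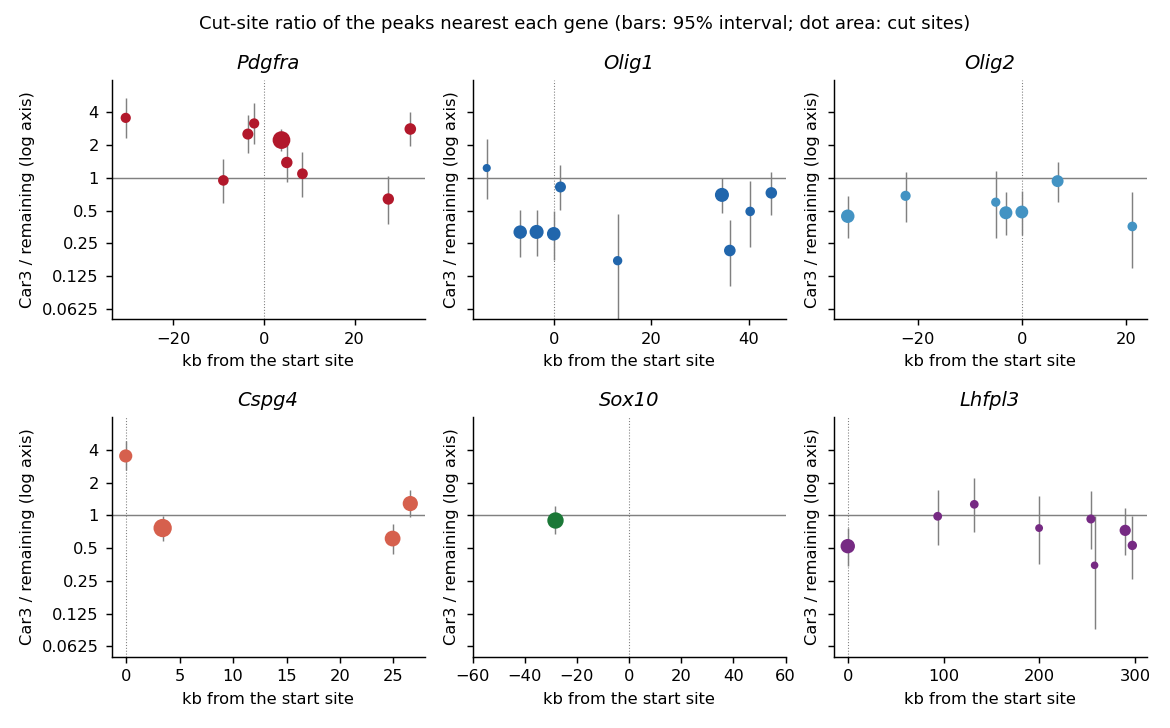
Cut-site ratio of the Car3 region over the remaining spots (log axis) for the peaks nearest each gene with at least 50 cut sites, against the distance of the peak from the start site in kb; dot area is proportional to cut sites and bars are 95% intervals, of which 1 for Olig1 runs on below the axis. The Olig1 and Olig2 peaks lie mostly below 1 (medians 0.406 and 0.486), and 5 of 9 Pdgfra peaks lie at 1.5 or above.

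Whether the genes followed connective-tissue RNA was addressed by ranking all spots by the share of UMIs from the 14 connective genes, none of which is 1 of the 6. The richest 25% (498 spots) had 0.416% of UMIs from the list and the other 1494 spots 0.121%. Pdgfra had 81 UMIs in those 498 spots, or 39.4 CPM, and 167 in the other spots, or 25.1 CPM, a ratio of 1.57 (1.19 to 2.06). Cspg4 had 113 against 264, a ratio of 1.38 (1.10 to 1.73). Olig1 had 22 against 140, or 10.7 against 21.04 CPM, a ratio of 0.508 (0.308 to 0.800), and Olig2 had 11 against 85, a ratio of 0.418 (0.201 to 0.787). Here the Olig1 and Olig2 intervals lay below 1, but with the richest 50% of spots that of Olig1 held 1 (0.923, 0.669 to 1.27), and with the richest 10% those of Olig2 (0.436, 0.116 to 1.15) and Pdgfra (1.43, 0.949 to 2.09) did. Sox10 had 10 against 51 (0.634, 0.287 to 1.26) and Lhfpl3 498 against 1880 (0.856, 0.774 to 0.946).

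At the 1.5-fold limit, 1 of the 6 genes was higher and 3 were lower in the connective-richest spots, beside 9.64% and 4.26% of all genes. Promoter ratios were 3.49 (2.31 to 5.33) for Pdgfra, 1.91 (1.41 to 2.57) for Cspg4, 0.778 (0.555 to 1.08) for Olig1, 0.512 (0.320 to 0.791) for Olig2, 1.44 (0.929 to 2.22) for Sox10 and 0.585 (0.403 to 0.831) for Lhfpl3. By the same limit 2 promoters were higher and 2 lower, beside 8.23% and 8.59% of all promoters. The intervals of Olig1 and Sox10 depended on the window: with 500 bp that of Olig1 lay below 1 (0.661, 0.436 to 0.979) and Sox10 had 1.73 (0.977 to 3.02), so that all 6 passed the limit beside 21.7% of promoters, and with 2 kb that of Sox10 lay above 1 (1.46, 1.08 to 1.95) while Olig1 had 0.892 (0.681 to 1.16). With insertions counted in place of fragments both left out 1 (0.773, 0.607 to 0.978, and 1.46, 1.06 to 1.98). Muscle RNA moved with connective RNA: 42.97% of these spots lay in the Car3 region, which held 12.6% of all spots, and the 25% of spots richest in muscle RNA gave a ratio of 1.37 (1.15 to 1.63) for Pdgfra and Cspg4 summed and 0.756 (0.567 to 0.996) for Olig1, Olig2 and Sox10 summed. The parts of the muscle and connective RNA in the split cannot be told apart in these spots.

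Among the remaining spots alone, the split by connective RNA was not detectable. Only 27.7% of the 498 connective-richest spots over all spots were remaining spots. The richest 25% of the remaining spots therefore reached down to lower connective shares, and its ratios are not like for like with those over all spots. The richest 25% of those spots gave a ratio of 1.11 (0.875 to 1.40) for Pdgfra and Cspg4 summed and 0.929 (0.673 to 1.26) for Olig1, Olig2 and Sox10 summed, where the values over all spots were 1.45 (1.22 to 1.73) and 0.504 (0.356 to 0.696). The promoter ratios among the remaining spots were 1.11 (0.710 to 1.70) and 1.06 (0.794 to 1.39). Lhfpl3 RNA kept an interval below 1 there (0.888, 0.787 to 0.999), and Olig2 RNA had a ratio of 0.610 (0.290 to 1.17). The ratios of Olig1 RNA and of the Lhfpl3 promoter lay above 1 in these spots, with intervals that held 1. No split within the 3 named regions was run.

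The spots were also ranked by the RNA of 4 other cell types, with few intervals that left out 1. In the 25% of spots richest in neuronal RNA, Sox10 had 22 UMIs against 39, a ratio of 1.86 (1.05 to 3.22), whereas its promoter had 14 fragments against 80, a ratio of 0.624 (0.326 to 1.11). The Pdgfra promoter had a ratio of 0.426 (0.206 to 0.799) there, so 1 of the 6 genes was higher in RNA and 2 of the 6 promoters were lower by 1.5-fold. At that split 1.45% of genes were higher by 1.5-fold in RNA and 5.07% of promoters were lower. Sox10, with 61 UMIs, was near the minimum of 50 for ratios. The 1.45% is over genes that mostly had more UMIs and less counting error, so it is not like for like with Sox10. Olig1, Olig2 and Sox10 summed to 90 UMIs there against 229, a ratio of 1.30 (1.005 to 1.66). Of these neuron-richest spots, 2.61% lay in the Car3 region, which held 12.6% of all spots. Their connective RNA had a ratio of 0.673 (0.646 to 0.701) and their muscle RNA 0.767 (0.752 to 0.783), and the parts of these in the values were not tested. The spots richest in radial glia or mural-cell RNA gave no RNA interval of a single gene that left out 1, nor did those richest in RNA of the Schwann list, where Pdgfra came closest (1.33, 0.9998 to 1.76). The Schwann list had 1527 UMIs in its richest spots and 1403 in the others. Fabp7, which is also in the radial glia list, had 1733 UMIs over all spots. Radial glia RNA, Fabp7 included, had a ratio of 1.31 (1.26 to 1.35) in the Schwann-richest spots. This split was therefore not of Schwann-cell RNA alone. The mural list covers pericytes, in which Cspg4 is a known marker, and Cspg4 had a ratio of 1.07 (0.838 to 1.36) there.

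Variation over spots was measured by the index of dispersion, the squared deviation from the count that depth alone predicts over that count, which is near 1 when only depth and counting error vary. Over the 1992 spots the index was 1.11 for Pdgfra, 1.15 for Olig1, 1.005 for Olig2, 0.973 for Cspg4, 1.11 for Sox10 and 1.05 for Lhfpl3, beside a median of 1.02. None of the 6 reached 1.5, a value reached by 0.524% of genes with at least 100 UMIs. Among those genes Olig1 was at percentile 97.2, Pdgfra at 94.0, Lhfpl3 at 74.6 and Cspg4 at 15.5. Olig2 and Sox10 had fewer UMIs than that minimum.

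Counts were then summed by barcode segment. Over the 48 second segments, the index was 1.67 for Pdgfra, 1.55 for Lhfpl3, 1.45 for Olig1, 1.10 for Olig2, 0.956 for Cspg4 and 0.943 for Sox10. Of the 6, 2 reached 1.5, beside 33% of genes, so this share was near the background. The Pdgfra value depended on sparse spots: with at least 2000 UMIs per spot it was 1.22, while that of Lhfpl3 was 1.56. A single second segment with 2764 UMIs in all held 1 Pdgfra UMI, or 362 CPM. In the remaining spots alone none reached 1.5, beside 20.3% of genes. Over the 50 first segments, Olig1 reached 1.65, at percentile 97.3, beside 5.58% of genes at 1.5 or more, and its count per first segment ran from 0 to 14 with a median of 3. The Olig1 value over first segments was 1.65 in the remaining spots too. For promoters over second segments the index was 2.30 for Pdgfra and 2.11 for Cspg4, at percentiles 98.7 and 97.8, then 1.65 for Lhfpl3, 1.62 for Olig1, 1.26 for Sox10 and 1.21 for Olig2. There 4 of 6 reached 1.5, beside 16.3% of promoters.

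Over the 45 second segments with at least 50000 UMIs, Pdgfra ran from 5.06 to 68.3 CPM with a median of 27.6, Cspg4 from 23.4 to 85.4 with a median of 42.3, and Lhfpl3 from 203 to 417 with a median of 256. These 3 genes were seen in every such segment, while Olig1 was at 0 in 3 of them, Olig2 in 10 and Sox10 in 15. The 6 segments richest in connective RNA, of which 2 had fewer than 50000 UMIs, held 40 of the 248 Pdgfra UMIs, a ratio of 1.95 (1.36 to 2.75) over the other segments. They held 5 of 162 Olig1 UMIs (0.324, 0.104 to 0.771), 47 of 377 Cspg4 UMIs (1.45, 1.04 to 1.97) and 8 of 96 Olig2 UMIs (0.924, 0.387 to 1.90). Sox10 had 2 UMIs there (0.344, 0.0408 to 1.30) and Lhfpl3 200 (0.933, 0.803 to 1.08). The intervals of Olig2, Sox10 and Lhfpl3 held 1, and that of Olig2 overlapped that of Olig1. This comparison was not among those planned.

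**Figure D4:**
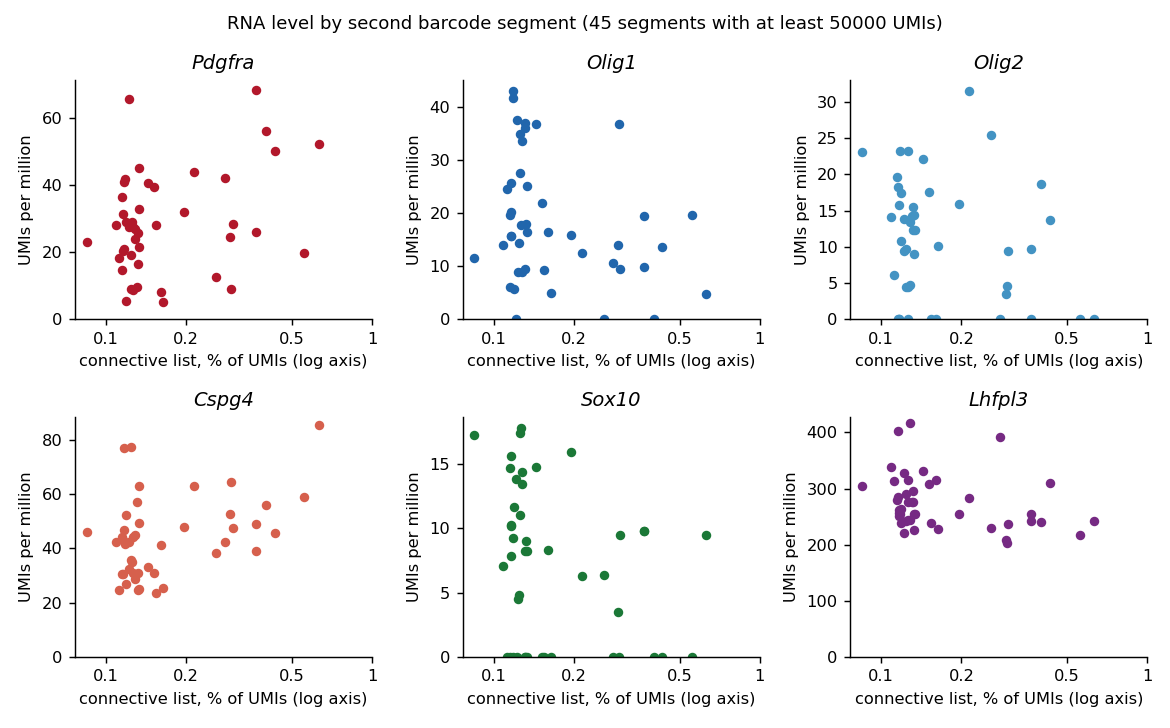
RNA level of each gene in CPM (vertical axes, each from 0) against the share of UMIs from the connective list (log axis) in the 45 second barcode segments with at least 50000 UMIs, 1 point per segment. The connective share runs from 0.0846% to 0.631%, and most segments lie near its median of 0.131%.

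For no single pair of the 6 genes was an excess of spots with RNA of both detectable at this depth. For each of the 15 pairs, the number of spots with a UMI of both was set against the number expected from depth, and every interval held 1. Pdgfra and Olig1 shared 24 spots where 20.7 were expected, a ratio of 1.16 (0.743 to 1.73). Pdgfra and Cspg4 shared 47 (expected 44.9), Olig1 and Olig2 10 (expected 8.41) and Olig2 and Sox10 6 (expected 3.27, ratio 1.83, 0.672 to 3.99). The 5 pairs with Lhfpl3, which is in most spots, shared 610 spots where 629 were expected. The other 10 pairs shared 181 where 163 were expected, a ratio of 1.11, and 9 of them lay above 1. No interval is given for these sums, since the pairs share genes and spots. The intervals of the scarce pairs were wide, and a 1.5-fold excess for pairs such as Olig1 and Sox10 (4 spots, 0.740, 0.202 to 1.89) was within reach of counting error.

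The spots with at least 1 UMI of Olig1, Olig2 or Sox10 (285 of 1992) were also compared with the other 1707. Pdgfra had 48 UMIs there, or 35.2 CPM, against 27.2 CPM, a ratio of 1.29 (0.923 to 1.78), Cspg4 had a ratio of 1.19 (0.898 to 1.55) and Lhfpl3 0.999 (0.892 to 1.12). All 3 intervals held 1. These spots were deeper, with a median of 4612 UMIs against 4080, and this comparison was made after values had been seen.

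Among all genes with at least 20 expected shared spots, those with the highest ratio of observed to expected spots shared with Pdgfra were Hinfp (32 spots, 20.1 expected, ratio 1.59), Gm49003, Terf1, Kctd5 and Cfap299. For Olig1 the first was Elovl2 (36 spots, 21.4 expected, ratio 1.68), which encodes a fatty acid elongase, followed by Atp1b2, Urm1, Rab3b and Snx16. For Olig2 they were Zbtb7c (55 spots, 33.4 expected, ratio 1.65), then Myt1 (30 spots, ratio 1.48), a zinc finger factor known in oligodendrocyte precursors and neurons, Sdf4, Tbce and Phkb. For Cspg4 they were Sh3bgrl2 (ratio 1.64), Lyrm1, Myoz2, Sardh and Gprin2, for Sox10 Lhfp (ratio 1.48), Dzip1, Efnb3, Npc2 and Trib2, and for Lhfpl3 Prps1l3 (ratio 1.30), Kif20a, Arhgap4, Mrm1 and C1galt1c1. A ratio of 1.5 was passed by 4 of 8965 partners of Pdgfra (0.0446%), 1 of 7135 of Olig1 (0.014%), 1 of 4681 of Olig2 (0.0214%) 9 of 10502 of Cspg4 (0.0857%) and 0 of the partners of Sox10 and Lhfpl3. No interval was computed for these partners, which were picked as the highest of all partners. Of the 15 pairs among the 6 genes, 7 were below the minimum of 20 expected spots and could not be ranked here.

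Other genes of the lineage were taken from lists, of which 3 bear on precursors. Of 18 other precursor genes, 14 had at least 50 UMIs, and 3 of these were higher and 1 lower by 1.5-fold in the Car3 region, beside the 12.1% and 9.05% of all genes given above. Their median ratio was 0.860. The 3 with most UMIs were all lower with intervals below 1: Pcdh15, a protocadherin (ratio 0.844, 0.770 to 0.925), Ptprz1, a receptor phosphatase (0.743, 0.663 to 0.831), and Cacng4, an AMPA receptor auxiliary subunit (0.783, 0.674 to 0.907). The neuroglial proteoglycan gene Cspg5 was lower (101 UMIs against 807, ratio 0.576, 0.463 to 0.709). S100b, a calcium-binding protein gene of glia that other tissues also use, was higher (70 against 76, ratio 4.24, 3.02 to 5.94), as were the matrix gene Matn4 (2.51, 1.62 to 3.82) and Bcas1 (2.43, 1.32 to 4.35). The list thus held genes in both directions.

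Of 18 regulators of the lineage, 11 had at least 50 UMIs, with a median ratio of 0.821, and 1 was higher and 4 were lower by 1.5-fold, beside 12.1% and 9.05% of all genes. The most abundant were Sox5 (0.898, 0.814 to 0.989), Tcf7l2, an effector of Wnt signalling (0.788, 0.711 to 0.872), and the chromatin remodeller Smarca4 (0.880, 0.789 to 0.979). Hes5, a Notch target, had 17 UMIs against 175, a ratio of 0.447 (0.254 to 0.736), and Id4, an inhibitor of helix-loop-helix factors, 164 against 1788, a ratio of 0.422 (0.357 to 0.495). The Hes5 promoter was also lower (0.588), whereas that of Id4 was near 1 (0.904) and that of Tcf7l2 was higher (2.04).

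In the PDGF family, the ligands Pdgfa (524 UMIs, ratio 1.03, 0.796 to 1.32), which binds Pdgfra, Pdgfc (204 UMIs, 1.27, 0.846 to 1.86) and Pdgfb (161 UMIs, 1.07, 0.669 to 1.65) had intervals that held 1. Pdgfd was higher in the Car3 region (50 against 66 UMIs, 3.48, 2.36 to 5.11), and so was Pdgfrb, the paralogous receptor of mural and mesenchymal cells (72 against 175, 1.89, 1.42 to 2.50). The Pdgfrb promoter had a ratio of 3.09 (2.30 to 4.17), beside 4.19 for that of Pdgfra at the GENCODE start site. Of the 6 family genes, 3 were higher by 1.5-fold and none lower, beside 12.1% and 9.05% of all genes, and the interval of the third, Pdgfrl, held 1 (2.12, 0.976 to 4.36).

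Genes of myelin had widely different counts. Of 11 in the list, 6 had at least 50 UMIs, among them Mbp with 360 UMIs, Cnp with 207, Cldn11 with 77, Mog with 65 and Mag with 51. Mag, a myelin adhesion protein gene, had 2 UMIs in the Car3 region against 40 (0.230, 0.0269 to 0.887), and Mbp, Cnp, Cldn11 and Mog had intervals that held 1. Mobp had 8 UMIs, Opalin 5 and Ermn 3, and the myelin regulator Myrf 8. In the Schwann list, 6 of 15 genes had at least 50 UMIs. Pmp22 was higher in the Car3 region (2.08, 1.53 to 2.80), and Pou3f1 (0.413, 0.270 to 0.608) and Fabp7 (0.558, 0.470 to 0.658), both also used in the brain, were lower. The whole Schwann list, most of whose UMIs over all spots were from Fabp7, made up 0.0263% of UMIs in the Car3 region and 0.0352% in the remaining spots. Its promoters summed to a ratio of 1.12 (1.004 to 1.25), on the other side of 1. The part of this list in the Sox10 values was not tested.

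The genes that the Car3 region was rich in set the scale. All 12 connective genes with at least 50 UMIs were higher by 1.5-fold, with a median ratio of 2.60, led by the collagen genes Col1a1 (3.79, 3.61 to 3.98) and Col1a2 (3.53, 3.24 to 3.84). The ratios of Pdgfra and Cspg4 RNA (1.42 and 1.57) were below every 1 of these. Their promoter ratios at the GENCODE start sites (4.19 and 2.62) stood beside 3.23 for Col1a1 and 2.93 for Col1a2. That of Pdgfra depended on the start site, and the Cspg4 window also overlaps Odf3l1. The 9 mural genes with at least 50 UMIs had a median ratio of 0.917, with 2 higher and 1 lower, beside 12.1% and 9.05% of all genes. The promoters of the mural list summed to a ratio of 1.43 (1.25 to 1.63).

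**Figure D5:**
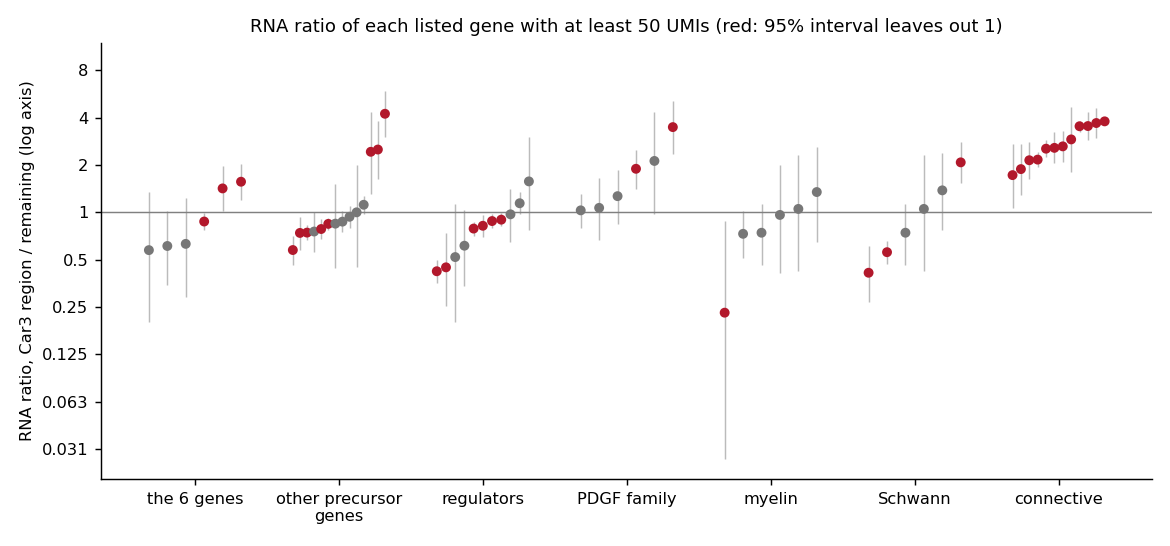
RNA ratio of the Car3 region over the remaining spots (log axis) for each gene with at least 50 UMIs in 7 lists, ordered by ratio within a list, with 95% intervals; red points have an interval that leaves out 1. The connective genes all lie above 1, the lineage regulators mostly below, and the 6 genes on both sides.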

How the data were processed

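RNA counts and accessibility fragments came from 1 library each of 1 homozygous CTCF-R567W embryo. The authors used cellranger-arc 2.0.1, a version given in the header of the fragment data, and Seurat 4.0, per the submitters' processing notes, with mm10. The deposited matrix holds raw UMI counts per gene and cut-site counts per peak, and the fragment file holds read counts per fragment, of which each fragment was counted once. Kept spots had between 500 and 6000 genes, with no more than 20% of UMIs mitochondrial. Clusters came from scanpy 1.11.5 and leidenalg 0.10.2 (2000 variable genes, 30 components, 15 neighbours, resolution 1.0), without the 6 genes and the lists except muscle. A cluster whose first leading gene reached a fold of 3 was a named region. Ratios compare CPM values with exact conditional binomial intervals (scipy 1.17.1), on genes with at least 50 counts. Start sites came from GENCODE M21. Genes were named by list, and co-detection partners by the 5 highest ratios. Members and lists were chosen with earlier results of these data known. Scripts were tested on simulated data. Alternative filters, clusterings, windows and minimums were tried. Single values of some list genes are not reported here.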

Additional observations from a re-analysis of the deposited data

Results flagged for a closer look

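The fragment file held 507 barcodes that the count matrix lacks, with a median of 5128 fragments each, and the promoters of the 6 genes had fragments there above the 3 that a count of 0 allows. Cspg4 had 19, Pdgfra 13, Lhfpl3 11, Olig1 9, Olig2 7 and Sox10 7. In promoter fragments scaled to a total of 1000000, the ratio to the kept spots was 1.53 for Pdgfra, 1.25 for Cspg4, 0.900 for Sox10, 0.700 for Lhfpl3, 0.631 for Olig2 and 0.561 for Olig1, and every interval held 1. These barcodes have no RNA counts here and entered no comparison.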

How the results depend on the processing

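Of the alternatives to the main values of the comparisons, 87 stayed within the main interval, or within 1.5-fold for counts, and 13 moved. For single genes 196 stayed, 22 moved and 2 reversed. A wide main interval is easy to stay within, and a reversal was called only where the main interval left out 1. The summed RNA level of the 6 genes was 381 CPM, and 402 with Gm42418 left out of the total. Their summed promoter fragments were 146 promoter CPM, 130 with windows of 500 bp and 180 with 2 kb. Genes with a dispersion of 1.5 or more over second segments were 2 (33% of all genes), then 1 with at least 2000 UMIs per spot (32.2%) and 0 in the remaining spots (20.3%). Genes past 1.5-fold by connective RNA were 4 (13.9% of all genes), then 2 for the richest 50% of spots (7%) and 1 in the remaining spots (8.23%), and Olig1, Olig2 and Sox10 summed gave 0.504, then 0.728 and 0.929. In the remaining spots Pdgfra and Cspg4 summed gave 1.11 for RNA (1.45 over all spots). The promoter count there, an alternative chosen after seeing the data, was 0 (9.2% of all promoters) against 4 (16.8%), and the promoter sums were 1.11 against 2.36 and 1.06 against 0.806. There 2 ratios reversed, Olig1 RNA (1.19 against 0.508) and the Lhfpl3 promoter (1.29 against 0.585), both with intervals that held 1. The cause was not tested. Depth limits Sox10 and Olig2 most, with 61 and 96 UMIs. No paired analysis was possible because each assay had 1 library.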
